A study of Danio rerio with 18 samples.

Results

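The cerebellin family was described across whole zebrafish that carried the stl297 allele of scospondin. Its members were chosen by name alone, as every gene row called cbln followed by a number, which gave 16 of the 28870 rows of the count table. The groups were maternal zygotic mutants (MZ) and heterozygotes (het) at 5, 15 and 30 days post fertilization (dpf), each with 3 RNA-seq libraries. Both genotypes carried stl297, described in the series as a hypomorphic allele, and no wild type was analysed here. MZ fish also came from mutant mothers, so the maternal and the zygotic genotype cannot be told apart. The labels do not give the parents of the het fish, so clutch and genetic background cannot be told apart from genotype either. The labels do not say how many fish entered a library or whether libraries came from separate clutches, so the p-values measure only the spread between these libraries, which may be technical. The family was taken up with a lower level of cbln12 in MZ fish at 30 dpf already known. For that reason the genotype comparison at 30 dpf is given as a description, with no p-value, and so is every age comparison of cbln12 that uses those libraries. Where genes at 30 dpf are counted against a threshold, the counts are part of that description and are not used as a test.

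Each library held between 10178388 and 17141819 counted reads. All 15 genes of a list of body tissue markers that matched the table had reads in every library, and the neuronal gene elavl3 lay between 82.8 and 298 CPM (read counts scaled to a common library size). The scospondin gene itself had only 1 to 16 reads per library, too few to check the genotypes. In RNA from whole fish, fewer cells of a type and less RNA per cell cannot be told apart.

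Cerebellins are small secreted proteins of the C1q family. In the mouse cerebellum, Cbln1 is released by granule cells and binds neurexin on their parallel fibres, which helps to hold the synapses with Purkinje cells together. Mouse Cbln2 binds neurexins at other synapses, and mouse Cbln4 also binds the netrin receptor DCC and neogenin. Zebrafish have relatives of these genes (cbln1, cbln2a, cbln2b and cbln4) and further numbered members; among those, cbln12 is known as a marker of cerebellar granule cells in zebrafish.

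Levels between genes were compared as CPM per 1000 bases of the deposited gene length, averaged over the 6 groups. On that scale cbln8 was highest at 56.9, followed by cbln18 at 29.2 and cbln20 at 23.3. The next group held cbln9 at 9.47, cbln2b at 9.26 and cbln1 at 7.59, with cbln11 at 4.82 and cbln5 at 4.52 below them. cbln12 averaged 3.0, close to cbln6 at 2.62, cbln7 at 2.49, cbln4 at 2.17 and cbln2a at 2.01. The lowest were cbln14 at 1.79, cbln13 at 1.29 and cbln17 at 0.278. The average hides a change of order with age: at 5 dpf cbln18 ranked first in both genotypes, while cbln8 had 0.756 CPM per 1000 bases and rank 12 in MZ fish and 1.98 and rank 11 in het fish. At 15 dpf cbln8 ranked 3 in MZ and 1 in het fish, and at 30 dpf it ranked 1 in both. Within each group's own order, many neighbours were not separated. Of 15 neighbouring pairs in that order, the 3 libraries of 1 gene lay wholly apart from those of the next in 7 pairs in MZ fish at 5 dpf, in 1 pair in MZ fish at 15 dpf, and in 4 pairs in each of the other 4 groups.

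**Figure D1:**
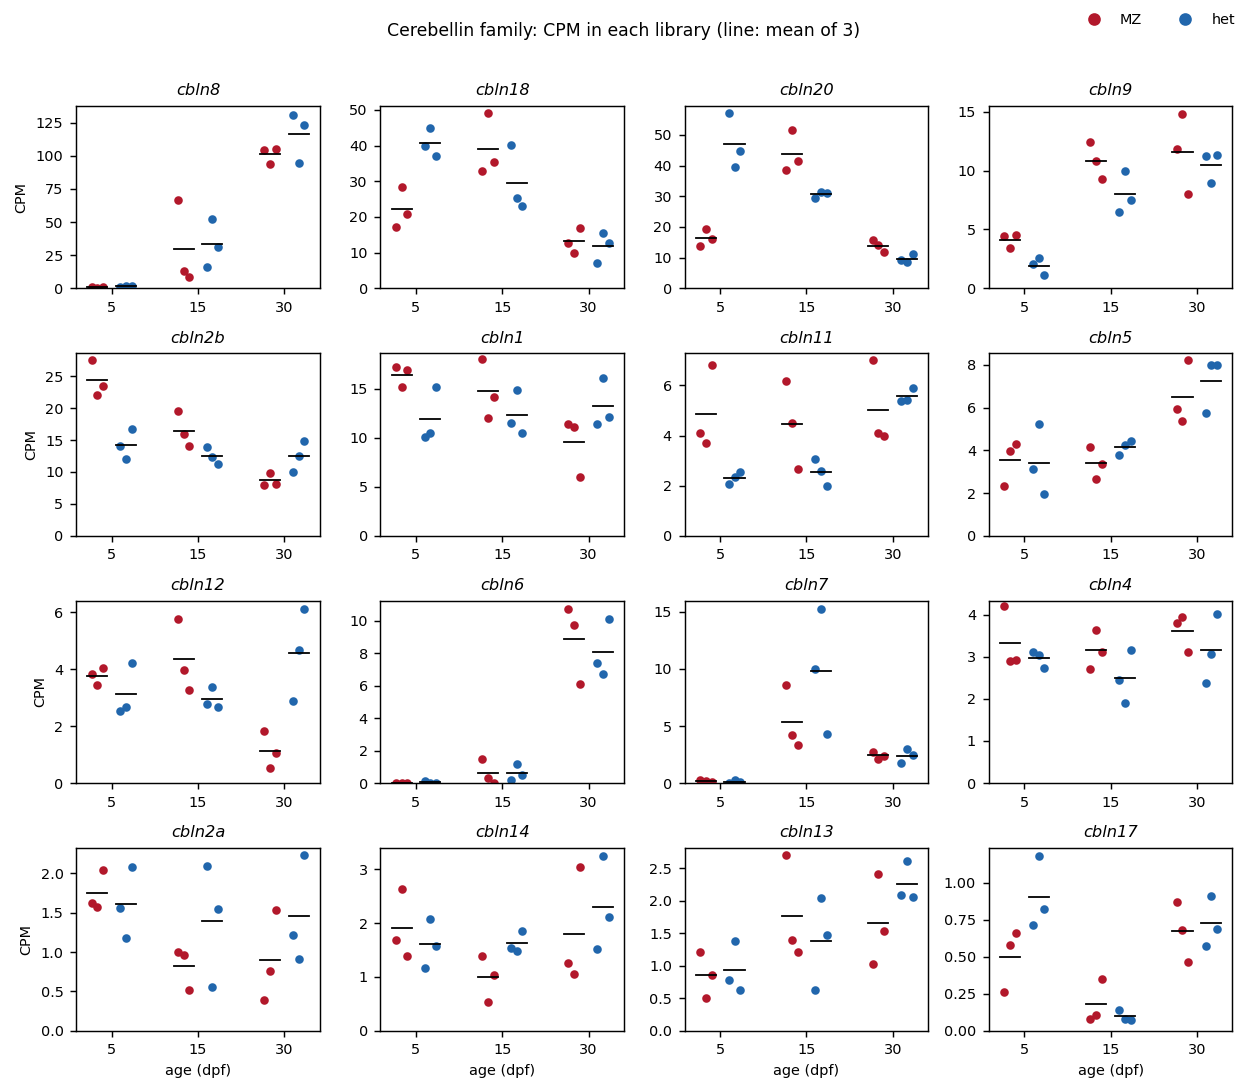
Level of each of the 16 cerebellins in each library, in CPM, by age and genotype, with MZ left of het at each age; points are libraries and bars are group means. cbln8 climbs steeply with age in both genotypes, cbln18 and cbln20 are lower in MZ than in het fish at 5 dpf, and cbln12 is lower in MZ than in het fish at 30 dpf.

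The make-up of the family's reads turned over with age. The summed level of all 16 members was 105 ± 3.61 CPM in MZ and 135 ± 4.73 CPM in het fish at 5 dpf (SD, n = 3 each). It was 179 ± 40.3 CPM in MZ and 153 ± 22.9 CPM in het fish at 15 dpf, and 191 ± 7.37 CPM in MZ and 211 ± 16.5 CPM in het fish at 30 dpf. The spread between the MZ libraries was thus widest at 15 dpf. cbln8 supplied 0.532 to 0.627% of the family's CPM in MZ and 0.929 to 1.5% in het fish at 5 dpf, but 50.9 to 56.0% in MZ and 48.7 to 62.1% in het fish at 30 dpf. cbln18 and cbln20 together supplied 31.0 to 44.0% in MZ and 61.5 to 69.4% in het fish at 5 dpf, and 13.1 to 15.4% in MZ and 7.75 to 12.3% in het fish at 30 dpf.

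**Figure D2:**
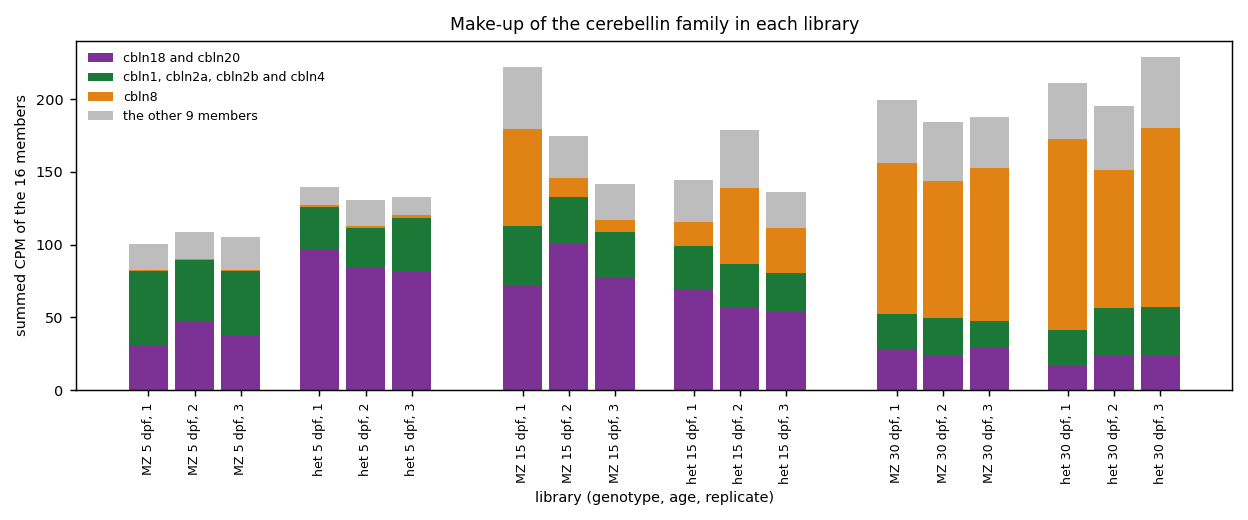
Summed CPM of the cerebellins in each library, stacked into cbln18 with cbln20, then cbln1, cbln2a, cbln2b and cbln4, then cbln8, and the other 9 members on top, with MZ left of het at each age. cbln18 and cbln20 make up most of the bar in het fish at 5 dpf, and cbln8 supplies between 48.7 and 62.1% of the bar at 30 dpf.

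At 5 dpf, 7 of the 14 cerebellins with enough reads to test differed between MZ and het fish at an adjusted p under 0.05 (edgeR's quasi-likelihood test with Benjamini-Hochberg adjustment over all genes), against 40.7% of all genes tested. Higher in MZ fish were cbln1, cbln2b, cbln9 and cbln11, and lower in MZ fish were cbln8, cbln18 and cbln20. By direction, 21.1% of all genes tested were higher and 19.6% lower, so a change at this age was common in the whole table. The median log2 fold change was 0.21 over the 14 members and 0.0 over all genes tested. Of all calls, 51.9% were higher with the 5 dpf libraries fitted alone, 52.3% with RLE factors in that fit, and 41.8% with all libraries in a single fit, which changes the filter, the scaling and the spread together and in which cbln1 and cbln8 were no longer called and 5 members were.

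At 15 dpf, none of 14 tested members passed the threshold in edgeR, against 0.886% of all genes tested. 4 members (cbln2b, cbln9, cbln11 and cbln20) had an unadjusted p under 0.05, as did 3646 of all 19306 genes tested, and DESeq2 called 1, cbln20. At 30 dpf, where the comparison is a description, 1 of 16 members, cbln12, lay past the same threshold, against 3.29% of all genes tested. The MZ libraries lay wholly above the het libraries for 1 member at 30 dpf (cbln20) and wholly below for 2 (cbln2b and cbln12), against 12.6% and 15.3% of all genes tested.

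**Figure D3:**
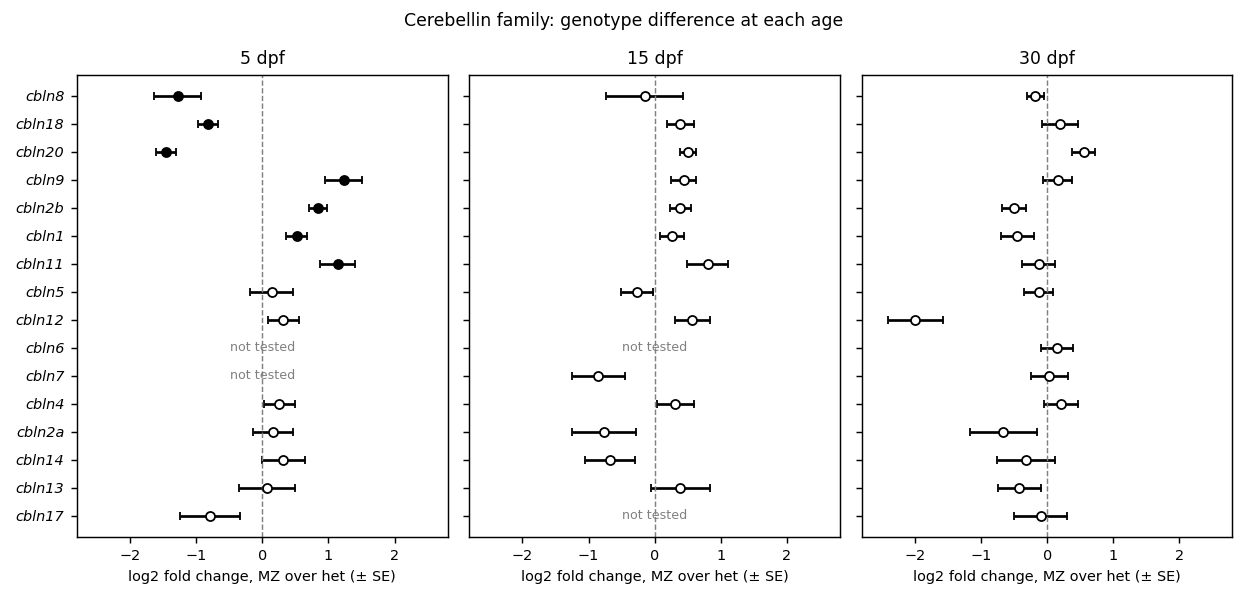
Log2 fold change of MZ over het for each cerebellin at 5, 15 and 30 dpf, with bars of 1 standard error on each side; filled points passed an adjusted p under 0.05 at 5 or 15 dpf, and no point is filled at 30 dpf, which is a description. Members lie on both sides of 0 at 5 dpf, and cbln12 lies farthest below 0 at 30 dpf.

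cbln12, the granule cell marker, was lower in MZ fish at 30 dpf, the difference for which it was chosen, and its groups overlapped at the younger ages. At 30 dpf it had 1.82, 0.53 and 1.06 CPM in MZ libraries (23, 7 and 16 reads) and 2.88, 4.69 and 6.13 CPM in het libraries (40, 72 and 107 reads). Every MZ library at 30 dpf was below every het library, with a log2 fold change of -1.99 (SE 0.42). This rests on few reads, and leaving out any 1 of the 6 libraries took cbln12 back across the threshold, with log2 fold changes between -2.5 and -1.67. At 15 dpf it had 5.78, 3.97 and 3.29 CPM in MZ and 2.79, 3.38 and 2.66 CPM in het libraries, groups that overlapped (log2 fold change 0.57, SE 0.27, edgeR adjusted p = 0.275). At 5 dpf it had 3.84, 3.46 and 4.04 CPM in MZ and 2.53, 2.66 and 4.23 CPM in het libraries, again overlapping (log2 fold change 0.32, SE 0.24, edgeR adjusted p = 0.314). Between ages, cbln12 averaged 1.14 CPM at 30 dpf and 4.35 CPM at 15 dpf in MZ fish, a log2 fold change of -1.89 (SE 0.41), with all 3 older libraries below all 3 younger ones. In het fish the change of 30 over 15 dpf was 0.65 (SE 0.28). These age values use the libraries in which cbln12 was chosen and carry no test.

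cbln1 and cbln2b, relatives of the mouse synaptic cerebellins, were higher in MZ than in het fish at 5 dpf. cbln2b had 27.6, 22.1 and 23.5 CPM in MZ and 14.1, 12 and 16.7 CPM in het libraries at 5 dpf, with no overlap (log2 fold change 0.84, SE 0.14, edgeR adjusted p = 0.000302). cbln1, whose mouse relative is the granule cell signal of the parallel fibre synapse, had 17.2, 15.2 and 16.9 CPM in MZ and 10.1, 10.5 and 15.2 CPM in het libraries at 5 dpf. The lowest MZ library of cbln1 lay only just above the highest het library (log2 fold change 0.52, SE 0.16, edgeR adjusted p = 0.0168). With MZ replicate 3, het replicate 1 or het replicate 2 left out, cbln1 was no longer called, at 0.50, 0.39 and 0.44.

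At 15 dpf, cbln2b had 19.5, 15.9 and 14 CPM in MZ and 13.9, 12.3 and 11.2 CPM in het libraries, barely apart (log2 fold change 0.39, edgeR adjusted p = 0.209). At 30 dpf it had 7.98, 9.85 and 8.17 CPM in MZ and 10, 12.5 and 14.8 CPM in het libraries, a log2 fold change of -0.50 (SE 0.18), with every MZ library below every het library. The level of cbln2b in MZ fish thus fell at both steps of age: by 0.59 (SE 0.15, edgeR adjusted p = 0.00408) at 15 over 5 dpf and by 0.87 (SE 0.18, edgeR adjusted p = 0.00653) at 30 over 15 dpf on the log2 scale. cbln2b passed neither age test in het fish, and the genotype difference changed between 5 and 15 dpf by -0.46 on the log2 scale, short of the threshold (edgeR adjusted p = 0.145); for the later step this was not tested. cbln1 had 18, 12 and 14.2 CPM in MZ and 11.5, 14.9 and 10.5 CPM in het libraries at 15 dpf, and 11.4, 11.1 and 6.04 CPM in MZ and 11.4, 16.1 and 12.1 CPM in het libraries at 30 dpf. The groups of cbln1 overlapped at both of these ages, with a log2 fold change of -0.45 (SE 0.25) at 30 dpf.

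cbln2a and cbln4 were low throughout. cbln4 lay between 1.89 and 4.21 CPM over all 18 libraries and passed no test of genotype or age. cbln2a lay between 0.395 and 2.23 CPM, and its only call was lower at 15 than at 5 dpf in MZ fish, by 1.10 on the log2 scale (SE 0.37, edgeR adjusted p = 0.0195). That call was lost under DESeq2, in a fit over all libraries and without MZ replicate 3 of either age.

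cbln18 and cbln20 were lower in MZ than in het fish at 5 dpf. They are direct neighbours in the RefSeq annotation of GRCz12tu, with no protein-coding gene between them, and their log2 levels over the 18 libraries had a Pearson r of 0.888, as a description. How alike their sequences are was not tested, so reads that could come from both cannot be told apart. At 5 dpf, cbln20 had 13.9, 19.3 and 16.2 CPM in MZ and 57.0, 39.5 and 44.7 CPM in het libraries. cbln18 had 17.3, 28.4 and 20.7 CPM in MZ and 39.9, 45.0 and 37.1 CPM in het libraries. No MZ library reached the het range of either gene. cbln20 was lower in MZ fish by 1.46 on the log2 scale (SE 0.15, edgeR adjusted p = 4.89e-06); the log2 fold change of cbln18 was -0.82 (SE 0.15, edgeR adjusted p = 0.000698).

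At 15 dpf the MZ means of both genes were above the het means. cbln20 had 38.6, 51.5 and 41.5 CPM in MZ and 29.3, 31.4 and 31.1 CPM in het libraries, with no overlap. Its log2 fold change of 0.51 (SE 0.12) missed the threshold in edgeR (adjusted p = 0.0608), with adjusted p between 0.0151 and 0.209 over the alternatives run. cbln18 had 32.9, 49.0 and 35.3 CPM in MZ and 40.1, 25.4 and 23.1 CPM in het libraries, which overlapped (log2 fold change 0.39, edgeR adjusted p = 0.307). The difference between the ages was tested directly, as the log2 fold change of MZ over het at 15 dpf minus that at 5 dpf. It was 1.96 for cbln20 (SE 0.20, edgeR adjusted p = 6.98e-06) and 1.20 for cbln18 (SE 0.28, edgeR adjusted p = 0.00627). These were the 2 calls among 15 members tested, against 20.3% of all genes tested, and both held in every alternative run, including each of 12 fits without 1 library. Over all genes, 51.8% of such calls were positive, and 65.1% in the fit over all libraries.

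The change with age was opposite in the genotypes for cbln20. At 15 over 5 dpf, cbln20 rose in MZ fish by 1.39 (SE 0.15, edgeR adjusted p = 4.14e-06) and fell in het fish by 0.62 (SE 0.12, edgeR adjusted p = 0.00113) on the log2 scale. cbln18 rose in MZ fish by 0.80 (SE 0.18, edgeR adjusted p = 0.00205); in het fish it fell by 0.45 (SE 0.16, edgeR adjusted p = 0.0421), a call lost under DESeq2, under RLE factors, in the fit over all libraries and in 4 of the fits without 1 library. At 30 dpf, cbln20 had 15.9, 14.1 and 11.8 CPM in MZ and 9.15, 8.61 and 11.1 CPM in het libraries. cbln18 had 12.7, 10 and 17 CPM in MZ and 7.2, 15.4 and 12.8 CPM in het libraries. Every MZ library was above every het library for cbln20 at 30 dpf (log2 fold change 0.55, SE 0.17), and the groups overlapped for cbln18. Both genes were lower at 30 than at 15 dpf in both genotypes: cbln20 fell by 1.59 in MZ and 1.66 in het fish (edgeR adjusted p = 5.94e-05 and 5.95e-06), and cbln18 fell by 1.49 in MZ and 1.32 in het fish (edgeR adjusted p = 0.000562 and 0.00377) on the log2 scale.

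**Figure D4:**
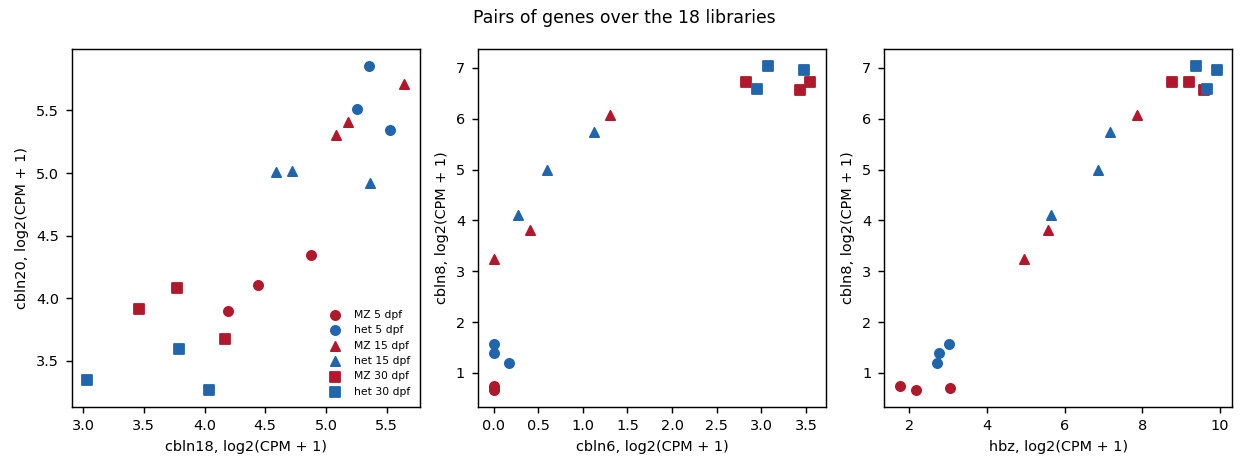
Levels in each of 18 libraries as log2(CPM + 1), with cbln20 (y) against cbln18 (x), cbln8 against its neighbour cbln6, and cbln8 against hbz, a gene named for a globin; colour gives the genotype and shape the age. The 5 dpf MZ libraries lie below the 5 dpf het libraries for both cbln18 and cbln20, and the 15 dpf libraries spread along a line between the other ages for cbln8 and hbz.

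cbln9 and cbln11 were higher in MZ than in het fish at 5 dpf. cbln9 had 4.47, 3.46 and 4.5 CPM in MZ and 2.08, 2.56 and 1.14 CPM in het libraries, and cbln11 had 4.1, 3.71 and 6.82 CPM in MZ and 2.08, 2.36 and 2.53 CPM in het libraries. Neither gene overlapped between genotypes at 5 dpf, with log2 fold changes of 1.23 for cbln9 (SE 0.28, edgeR adjusted p = 0.00282) and 1.14 for cbln11 (SE 0.26, edgeR adjusted p = 0.00327). At 15 dpf, cbln9 had 12.4, 10.8 and 9.26 CPM in MZ and 6.48, 9.98 and 7.46 CPM in het libraries. cbln11 had 6.17, 4.5 and 2.68 CPM in MZ and 3.07, 2.59 and 1.99 CPM in het libraries. Both genes overlapped between genotypes at 15 dpf; the log2 fold change of cbln11 was 0.80 (SE 0.31, edgeR adjusted p = 0.202). At 30 dpf, cbln9 had 11.8, 14.8 and 8.03 CPM in MZ and 11.2, 8.93 and 11.3 CPM in het libraries. cbln11 had 7.03, 4.09 and 3.98 CPM in MZ and 5.4, 5.41 and 5.9 CPM in het libraries. Both again overlapped between genotypes at 30 dpf.

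With age, cbln9 was higher at 15 than at 5 dpf in both genotypes. On the log2 scale the rise was 1.35 in MZ fish (SE 0.19, edgeR adjusted p = 5.23e-05). In het fish it was 2.10 (SE 0.27, edgeR adjusted p = 2.25e-05). The genotype difference of cbln9 changed between these ages by -0.80 (SE 0.34), short of the threshold (edgeR adjusted p = 0.104). cbln11 was higher at 30 than at 15 dpf in het fish, by 1.12 (SE 0.22, edgeR adjusted p = 0.00346), and was not called in MZ fish at that step; the difference between the genotypes was not tested.

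cbln8 was called higher at both steps of age in both genotypes. At 5 dpf it had 0.631, 0.577 and 0.662 CPM in MZ libraries (12, 7 and 10 reads) and 1.3, 1.97 and 1.64 CPM in het libraries (20, 20 and 26 reads). All MZ libraries were below all het libraries at 5 dpf (log2 fold change -1.28, SE 0.35, edgeR adjusted p = 0.009). At 15 dpf it had 66.7, 13.0 and 8.48 CPM in MZ and 16.3, 52.3 and 30.9 CPM in het libraries. The libraries of 1 group at 15 dpf differed more from each other than the groups did (log2 fold change -0.15, SE 0.58, edgeR adjusted p = 0.918). Without MZ replicate 1, the highest of all 6, the log2 fold change at 15 dpf was -1.65 (SE 0.37, edgeR adjusted p = 0.0276). At 30 dpf, cbln8 had 104, 93.9 and 105 CPM in MZ and 131, 94.9 and 123 CPM in het libraries, which overlapped.

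At 15 over 5 dpf, cbln8 rose by 5.53 in MZ fish (SE 0.77, edgeR adjusted p = 4.33e-05; 4.08 without MZ replicate 1 at 15 dpf) and by 4.37 in het fish (SE 0.38, edgeR adjusted p = 4.21e-07) on the log2 scale. At 30 over 15 dpf it rose by 1.81 in MZ fish (SE 0.55, edgeR adjusted p = 0.0413; 3.31 without MZ replicate 1 at 15 dpf) and by 1.81 in het fish (SE 0.30, edgeR adjusted p = 0.00138). The later call in MZ fish was lost under DESeq2 and in 4 of the 6 fits without 1 library. Between 5 and 15 dpf the genotype difference of cbln8 changed by 1.11 on the log2 scale (SE 1.18), short of the threshold (edgeR adjusted p = 0.537).

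cbln6, the direct neighbour of cbln8 in the RefSeq annotation, was nearly silent in young fish. At 5 dpf it had 0 reads in each MZ library and 2, 0 and 0 reads in het libraries. At 15 dpf it had 19, 3 and 0 reads in MZ and 3, 15 and 7 reads in het libraries. The libraries with most cbln6 reads at 15 dpf were also those highest in cbln8. In edgeR's test as described, cbln6 had too few reads to test 15 over 5 dpf in either genotype. The fit with no filter and the fit over all libraries called it higher at 15 dpf in both genotypes, and DESeq2 in het fish. How alike the sequences of cbln6 and cbln8 are was not tested, so reads that could come from both cannot be told apart. At 30 dpf cbln6 had 136, 129 and 92 reads in MZ and 103, 103 and 177 reads in het libraries. Summed over 3 libraries and set against library size, cbln6 was 13.4-fold higher at 30 than at 15 dpf in MZ fish (95% interval 8.73 to 21.7) and 13.3-fold higher in het fish (8.89 to 20.9), intervals that cover counting error only. The fitted log2 changes were 3.83 in MZ fish (SE 0.60, edgeR adjusted p = 0.0014; 5.9 without MZ replicate 1 at 15 dpf) and 3.69 in het fish (SE 0.39, edgeR adjusted p = 6.27e-05; 4.47 without het replicate 2 at 15 dpf).

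cbln7 peaked at the middle age. It had 6, 2 and 2 reads in MZ and 0, 3 and 1 reads in het libraries at 5 dpf, against 111, 39 and 39 reads in MZ and 143, 194 and 58 reads in het libraries at 15 dpf. Set against library size, the summed reads were 25.8-fold higher at 15 than at 5 dpf in MZ fish (95% counting interval 13.7 to 54.7) and 101-fold higher in het fish (39.0 to 371). The fitted log2 changes were 4.58 in MZ fish (SE 0.49, edgeR adjusted p = 4.97e-06) and 6.53 in het fish (SE 0.65, edgeR adjusted p = 1.68e-06; 5.89 with het replicate 1 at 5 dpf left out, 7.91 with het replicate 2 at 5 dpf left out). The genotype difference of cbln7 changed between 5 and 15 dpf by -2.0 on the log2 scale (SE 1.32), short of the threshold (edgeR adjusted p = 0.297). At 30 dpf it had 35, 28 and 36 reads in MZ and 24, 46 and 43 reads in het libraries. The step at 30 over 15 dpf was a fall by 1.11 in MZ fish (SE 0.35, edgeR adjusted p = 0.0493) and by 2.02 in het fish (SE 0.39, edgeR adjusted p = 0.00355) on the log2 scale. The call in MZ fish was lost in 5 of the 6 fits without 1 library, with a value of -0.57 without MZ replicate 1 at 15 dpf. The genotypes overlapped at 15 dpf (log2 fold change -0.85, SE 0.40, edgeR adjusted p = 0.276).

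The remaining members gave few calls. cbln17 had 5 to 10 reads in MZ and 11 to 13 reads in het libraries at 5 dpf, 1 to 4 in MZ and 1 to 2 in het libraries at 15 dpf, and 7 to 11 in MZ and 8 to 14 in het libraries at 30 dpf, a dip at the middle age. Its summed reads at 15 dpf were 0.372 of those at 5 dpf in MZ fish (95% counting interval 0.124 to 0.947) and 0.113 in het fish (0.0293 to 0.316), after library size, and the fall in het fish was called (edgeR adjusted p = 0.000653). These intervals cover counting error only. In edgeR's test as described, cbln17 had too few reads to test the fall in MZ fish or the step at 30 over 15 dpf in either genotype. The fit over all libraries called cbln17 higher at 30 than at 15 dpf in both genotypes. In het fish so did DESeq2, the fit with no filter, and the fits without het replicate 2 or 3 at 15 dpf or het replicate 1 at 30 dpf. Its genotype difference changed between 5 and 15 dpf by 1.57 on the log2 scale (SE 0.99), short of the threshold (edgeR adjusted p = 0.277). cbln5 lay between 1.96 and 8.23 CPM over the 18 libraries. It was higher at 30 than at 15 dpf, by 0.98 in MZ fish (SE 0.26, edgeR adjusted p = 0.0227, lost in 3 fits without 1 library) and by 0.81 in het fish (SE 0.19, edgeR adjusted p = 0.011, lost without het replicate 1 at 15 dpf) on the log2 scale. cbln13 lay between 0.495 and 2.7 CPM and cbln14 between 0.536 and 3.26 CPM over the 18 libraries, and edgeR's test as described called neither in any comparison. At 15 over 5 dpf in MZ fish, cbln13 was called higher with RLE factors, with a replicate block and in 3 fits without 1 library, and cbln14 was called lower without MZ replicate 1 at 15 dpf.

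Over the steps of age, 7 of 14 members tested changed at 15 over 5 dpf in MZ fish, against 57% of all genes tested, and 6 of 15 in het fish, against 39.7% of all genes tested. At 30 over 15 dpf, 8 of 15 changed in MZ fish, against 19.3% of all genes tested, and 7 of 15 in het fish, against 21.5% of all genes tested. The count of 8 includes cbln12 and fell to 5 without MZ replicate 2 at 15 dpf or MZ replicate 3 at 30 dpf. Successive steps share the 15 dpf libraries, and the age steps share libraries with the genotype comparisons.

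The receptors and partners of cerebellins were mostly higher in MZ fish at 5 dpf. Their list was chosen with earlier results of these data known, so its counts are a description and not a test. Of 14 genes listed (among them neurexins, neogenins and dcc), 12 were tested at 5 dpf, without dcc and grid2ipa. Of the 12, 11 were higher in MZ fish, against 21.1% of all genes tested, and none was lower. The gene not called was the neogenin gene neo1a (log2 fold change 0.19, SE 0.1). The median log2 fold change of the 12 was 1.16, against 0.0 over all genes tested. nrxn1a, a neurexin gene, averaged 117 CPM in MZ and 50.1 CPM in het fish at 5 dpf (log2 fold change 1.28, SE 0.17). At 15 dpf, none of the 12 was called in edgeR, and 1 (nrxn3b) had an unadjusted p under 0.05. At 30 dpf, 2 lay past the threshold, both lower in MZ fish (nrxn1a among them, against 2.19% of all genes tested that were lower), none of 12 had a positive log2 fold change, and the median was -0.90.

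Markers of neurons and of other tissues also differed between these libraries. These lists too were chosen with earlier results of these data known, so their counts are a description. Of all genes tested, 21.1% were higher and 19.6% lower at 5 dpf, 0.886% were called at 15 dpf, and 2.19% were lower at 30 dpf. Of 23 tested genes of a pan-neuronal list, 21 were higher and 1 lower in MZ fish at 5 dpf, 1 was higher at 15 dpf, and 12 were lower at 30 dpf. The summed level of this list was 2340 to 2950 CPM in MZ and 1180 to 1730 CPM in het libraries at 5 dpf, 1460 to 1990 CPM in MZ and 1240 to 1480 CPM in het libraries at 15 dpf, and 977 to 1180 CPM in MZ and 1430 to 1870 CPM in het libraries at 30 dpf. Of the granule cell list, 5 of 9 tested genes were higher in MZ fish at 5 dpf, none of 8 was called at 15 dpf in edgeR (1 at an unadjusted p under 0.05), and 1 (slc17a7a, a vesicular glutamate transporter) was lower at 30 dpf. Of 8 Purkinje cell genes, 5 were higher in MZ fish at 5 dpf. At 15 dpf none of these 8 was called in edgeR, and 3 had an unadjusted p under 0.05. At 30 dpf pvalb7 was higher, as were 219 of all 19979 genes tested, and lhx5 was lower. The summed granule cell list was 271 to 306 CPM in MZ and 237 to 284 CPM in het libraries at 5 dpf. It was 173 to 229 CPM in MZ and 162 to 198 CPM in het libraries at 15 dpf, which overlapped. At 30 dpf it was 101 to 125 CPM in MZ and 130 to 180 CPM in het libraries. The summed Purkinje cell list was 478 to 539 CPM in MZ and 396 to 402 CPM in het libraries at 5 dpf. At 15 dpf it was 575 to 627 CPM in MZ and 471 to 503 CPM in het libraries. At 30 dpf it was 546 to 621 CPM in MZ and 418 to 506 CPM in het libraries. Much of each of these sums was pvalb7. It averaged 260 CPM in MZ and 232 CPM in het fish at 5 dpf, and 409 and 306 CPM at 15 dpf. At 30 dpf pvalb7 alone averaged 451 CPM in MZ and 272 CPM in het fish. It was the only 1 of the 8 genes with a positive log2 fold change at 30 dpf, where the median was -0.32. In the granule cell list atoh1b, a gene of granule cell progenitors, was at 0 reads throughout, as was gap43 in the pan-neuronal list. Whether reads of atoh1b and gap43 could be counted under these rows was not tested, so 0 reads need not mean no expression. The other listed atoh1 genes had reads. At 5 dpf atoh1a averaged 0.663 CPM in MZ and 0.748 CPM in het fish, and atoh1c 1.46 CPM in MZ and 1.78 CPM in het fish. Of C1q-like genes with their receptor gene adgrb3, 6 were tested at 5 dpf, where adgrb3 and c1ql3a were higher and c1ql1 lower in MZ fish. At 30 dpf 5 were tested, and adgrb3 and c1ql4b were lower. The level of c1ql4b was low there, at 0.167 CPM in MZ and 1.16 CPM in het fish. Of 12 glial genes, 4 were higher and 1 lower in MZ fish at 5 dpf, and 2 were lower at 30 dpf. Of 15 body tissue genes, 5 were higher (the largest being hbae1 at 1.15 and col2a1a at 1.10) and 2 lower (krt4 at -0.83 and krt5 at -0.50, log2 fold changes) in MZ fish at 5 dpf, and hbae1 was higher at 15 dpf. None of the 15 was past the threshold in edgeR at 30 dpf, where the comparison is a description. At that age 10 of them had an unadjusted p under 0.05, as did 4451 of all 19979 genes tested. The part of these differences in the levels of cbln1, cbln2b, cbln9, cbln11 and cbln12 was not tested. For cbln8, cbln18 and cbln20, which were lower in MZ fish at 5 dpf, that part was not tested either.

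**Figure D5:**
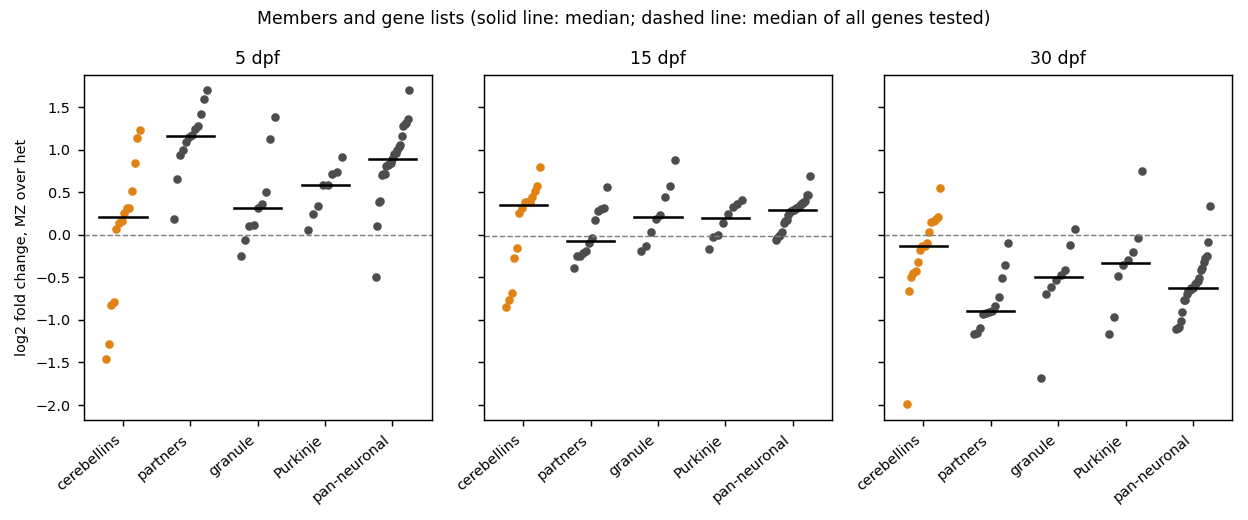
Log2 fold change of MZ over het for each tested gene of the cerebellins and of the lists set beside them, at 5, 15 and 30 dpf; each point is a gene, each solid line a median and the dashed line the median of all genes tested. The receptor and pan-neuronal genes lie mostly above 0 at 5 dpf and mostly below 0 at 30 dpf, while the cerebellins lie on both sides at 5 dpf.

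Over the 18 libraries and 21175 genes, the genes whose log2(CPM + 1) was most like that of cbln12 were kif5c (Pearson r 0.863), a kinesin heavy chain gene of neurons, gpr37l1b (0.859), rnd1 (0.838), the metabotropic glutamate receptor gene grm8a (0.833) and elmod1 (0.826). The genes most like cbln8 were hbz (0.988), si:dkeyp-75b4.10 (0.974), sla2 (0.972), si:ch1073-376c22.1 (0.971) and si:dkey-203a12.8 (0.97). The name hbz is a RefSeq synonym of globin genes, those of the oxygen carrier of red blood cells. At 15 dpf, hbz had 234, 46.5 and 30.0 CPM in MZ and 49.7, 143 and 116 CPM in het libraries, the same order of libraries as for cbln8. These likenesses are descriptions over libraries that share 6 groups and carry no test.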

How the data were processed

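Whole-fish RNA was extracted with Trizol and a QIAGEN column, and libraries were made with a SMARTer kit, per the labels' protocols. Reads were trimmed with cutadapt, aligned with STAR 2.5.4b to GRCz10 and counted per gene with featureCounts 1.6.3, per the submitters' processing notes. The deposited values are raw read counts per gene, with a gene length. Strand handling is not given in the sources used here.

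Groups came from the labels. Each comparison was fitted on its own libraries with edgeR 4.0.16 in R 4.3.3 (filterByExpr with a minimum count of 10, TMM factors, quasi-likelihood F test) over all genes, with Benjamini-Hochberg adjustment and a threshold of 0.05; the steps were tested on simulated data. The standard error is the absolute log2 fold change over the square root of F. CPM use TMM factors over all 18 libraries. Fold changes are MZ over het, or the later over the earlier age. Alternatives were DESeq2 1.42.0, RLE factors, no filter, one fit over all libraries, a replicate block and leaving out each library.

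The family and the lists were chosen with earlier results of these data known, and the members within the family by the name rule alone. Values are given in every library for cbln12 and for members called in a genotype comparison, and otherwise as ranges; those of cbln6 and cbln7 were added after their values were seen. Of 93 list entries, 91 matched a row. RefSeq's table (GRCz12tu) matched 15 of 16 members (not cbln5) and was used for names and neighbours only. Replicates differed beyond counting noise in every group (chi-square per degree of freedom between 4.73 and 16.9), so none was merged. Of 28870 rows, 1851 had no read.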

Additional observations from a re-analysis of the deposited data

Results flagged for a closer look

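The genotype difference of 2 of 15 cerebellins tested changed between 5 and 15 dpf by a direct test, against 20.3% of all genes tested. The change in log2 fold change of MZ over het (15 minus 5 dpf) was 1.96 for cbln20 and 1.20 for cbln18 (edgeR adjusted p = 6.98e-06 and 0.00627). For 2 members, every MZ library lay on one side of every het library at one age and on the other side at another. The share of all genes that changed sides in this way was not computed. At 30 dpf alone, every MZ library lay above every het library for 12.6% of all genes tested and below for 15.3%. The log2 fold change of cbln2b was 0.84 at 5 dpf and 0.39 at 15 dpf, with every MZ library above, and -0.50 at 30 dpf, with every MZ library below. That of cbln20 was -1.46 at 5 dpf, with every MZ library below, and 0.55 at 30 dpf, with every MZ library above. These differences from 30 dpf were not tested.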

How the results depend on the processing

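Of 557 values of 49 member results under the alternatives, 501 kept their direction and side of the threshold, 37 lost a call, 12 gained one and 7 changed sign. At 15 dpf, DESeq2 and the fit with no filter each called 1 member between genotypes (cbln20), against 0. Leaving out 1 library gave 6 to 7 members called between genotypes at 5 dpf, 0 to 2 at 15 dpf and 0 to 0 at 30 dpf, 5 to 6 for het 15 over 5 dpf, 6 to 9 for het 30 over 15 dpf, 6 to 8 for MZ 15 over 5 dpf, 5 to 7 for MZ 30 over 15 dpf and 2 to 2 for the test between 5 and 15 dpf. A value that missed the threshold changed sign in 3 of these fits for cbln8 at 15 dpf (-1.65 to 0.34; 0.20, 0.30 and 0.34 without MZ replicate 2, MZ replicate 3 and het replicate 2). For cbln12 the values ran between -0.26 and 0.21 for het 15 over 5 dpf (0.21 without het replicate 3 at 5 dpf), between -0.06 and 0.38 for MZ 15 over 5 dpf (-0.06 without MZ replicate 1 at 15 dpf), and between -0.04 and 0.40 for the test between 5 and 15 dpf (-0.04 without either of those libraries). The cause was not tested.

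Same-numbered libraries deviated together with r between -0.12 and 0.145, and in 0 of 7 comparisons was every pair over 0.1, so the numbers were not taken to pair libraries. Every library correlated best with its own number in 1 of 7 comparisons. With the replicate number as a block, 0 members lay past the threshold at 30 dpf, against 1. Read depth limits the members with few reads, such as cbln17 and, at 5 dpf, cbln6 and cbln7.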

Other observations

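No row is named cbln10, but the row si:rp71-1g18.7, outside the name rule, carries a synonym of the gene that RefSeq names cbln10. This row averaged 5.52 ± 0.24 CPM in MZ and 8.39 ± 1.8 CPM in het fish at 5 dpf, 11.6 ± 0.896 CPM in MZ and 9.1 ± 1.4 CPM in het fish at 15 dpf, and 19.7 ± 3.32 CPM in MZ and 17.2 ± 1.1 CPM in het fish at 30 dpf (SD, n = 3 each).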
